A study of Mus musculus with 8 samples.

Results

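Kinesin motor genes were followed across mouse mammary tumor organoids with and without SOX4. The members were chosen by symbol alone, as genes named Kif followed by a number and at most 1 letter and further digits. The rule found 38 genes among the 38293 gene identifiers of the bulk RNA-sequencing tables. They were set apart by known role into 12 mitotic kinesins, 13 transport kinesins and 13 other kinesins. The single-cell tables listed 31 of them in GR17, 31 in GR18 and 32 in GR19, of 13493, 13761 and 13900 gene names, and 33 appeared in any of these libraries.

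Kinesins are ATP-driven motors that walk along microtubules, mostly toward the plus end. One set builds and orders the mitotic spindle, moves chromosomes and completes cytokinesis, and its genes are transcribed mainly in late cell cycle. Another set carries vesicles, endosomes, mitochondria and ciliary cargo through interphase cells, with light chains and adaptors linking motor to cargo.

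The organoids came from MMTV-PyMT; MMTV-Cre; Ecadherin-mCFP mice, in which the MMTV promoter drives the PyMT oncogene and Cre in mammary epithelium. Control and SOX4KO lines all carried these alleles, and the SOX4KO lines additionally carried a CRISPR/Cas9-induced loss of SOX4. Bulk libraries came from 2 control lines (WT1 and WT3) and 3 SOX4KO lines (H7, M4 and H4). Plate-based single-cell libraries came from 1 control line (GR17) and 2 SOX4KO lines (GR18 and GR19). All were grown for 4 days after plating as single cells in medium with B27 and FGF2, and each line is a clone with 1 library. The age of the mice is not given in the sources used here. Differences between clones therefore enter every comparison of genotype, and with 1 control single-cell library genotype, clone and library cannot be told apart there.

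Bulk libraries held 3050323 to 4678497 reads on genes, with M4 the shallowest. Single-cell libraries held 7714119 to 8296953 unique molecular identifiers (UMIs) in 362 to 369 wells of at least 1000 UMIs, at a median of 19845 to 21876 UMIs per well. Sox4 transcript itself, which an indel need not remove, stood at 295 and 374 CPM (counts scaled to 1e+06 per library) in WT1 and WT3 and at 199, 179 and 299 in H7, M4 and H4 (log2 fold change −0.57, edgeR adjusted p = 0.277). In single cells Sox4 reached 118 CPM in GR17, 82.5 in GR18 and 110.4 in GR19, so transcript level did not separate every SOX4KO library from control. Epcam, which defines epithelium, was present at 593 to 865 CPM in the 5 bulk lines, whereas the 5 endothelial markers summed to at most 2.5 CPM and the 7 immune markers to at most 14.4 CPM. The 8 fibroblast markers were not absent and summed to 129.9 to 315 CPM.

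Promoter sequence was examined because genes of late cell cycle often carry a CHR element and CCAAT boxes close to their start sites. The RefSeq promoter table (GRCm38.p6) gives 250 bases before to 50 bases after each start, and it matched 31 of the 38 members, among them 11 of 12 mitotic, 10 of 13 transport and 10 of 13 other kinesins. Kif20a, Kif5a, Kif5b, Kif13b, Kif19a, Kif21b and Kif28 had no entry. For Kif1a, Kif1b, Kif2a and Kif9 the table gives a pair of start sites, and each start was counted. A CHR match (the motif TTTGAA, or instead of it TTCGAA, on either strand) lay in 9 of 11 mitotic kinesin promoters (81.8%), 1 of 12 transport promoters (8.33%) and 3 of 12 other kinesin promoters (25%), beside 19.2% of all 32851 promoters. A CCAAT match on either strand lay in 7 of 11 mitotic promoters (63.6%), 4 of 12 transport promoters (33.3%) and 4 of 12 other promoters (33.3%), beside 37.4% of all. Both motifs stood in the same window in 6 of 11 mitotic promoters (54.5%), in none of 12 transport promoters, in 3 of 12 other kinesin promoters (25%) and in 7.52% of all promoters. A SOX core (the motif ACAAAG, or instead of it the motif ACAATG, or else the motif AACAAT, on either strand) was found in 5 of 11 mitotic promoters (45.5%), 1 of 12 transport promoters (8.33%), 3 of 12 other kinesin promoters (25%) and 33.2% of all, and Kif11, Kif14, Kif22, Kif2c, Kif4 and Kif18a held no such letters in this window. The mitotic promoters counted include that of Kif2b, which had no read in any bulk library. It holds a CCAAT match and SOX cores but no CHR match. Some of these letter strings can overlap one another, and a match describes letters, not a bound site.

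The promoters below are those of Kif11, the member with the largest bulk difference among mitotic kinesins, of Kif22 and Kif18b, which hold CHR and a pair of CCAAT matches, of Kif18a, which holds neither, and of the transport genes Kif1c and Kif16b, which hold neither. Each reads 5′ to 3′ on the strand of the gene, and capitals mark CHR and CCAAT matches on either strand, so that CCAAT on the other strand reads ATTGG and CHR reads TTCAAA.
Kif11 promoter, chr19:37376132-37376431, plus strand: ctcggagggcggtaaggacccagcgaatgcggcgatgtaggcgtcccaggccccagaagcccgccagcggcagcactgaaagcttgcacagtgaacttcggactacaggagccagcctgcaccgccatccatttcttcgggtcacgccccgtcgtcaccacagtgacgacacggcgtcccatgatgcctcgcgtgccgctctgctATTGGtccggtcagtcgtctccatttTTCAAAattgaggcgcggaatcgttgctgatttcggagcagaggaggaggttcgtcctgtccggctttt
Kif22 promoter, chr7:127042371-127042670, minus strand: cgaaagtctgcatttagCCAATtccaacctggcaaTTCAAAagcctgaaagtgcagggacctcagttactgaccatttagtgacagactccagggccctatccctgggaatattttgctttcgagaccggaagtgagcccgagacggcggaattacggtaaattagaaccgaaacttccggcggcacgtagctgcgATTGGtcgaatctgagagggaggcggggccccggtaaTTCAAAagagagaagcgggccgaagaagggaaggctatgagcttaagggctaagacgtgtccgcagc
Kif18b promoter, chr11:102925075-102925374, minus strand: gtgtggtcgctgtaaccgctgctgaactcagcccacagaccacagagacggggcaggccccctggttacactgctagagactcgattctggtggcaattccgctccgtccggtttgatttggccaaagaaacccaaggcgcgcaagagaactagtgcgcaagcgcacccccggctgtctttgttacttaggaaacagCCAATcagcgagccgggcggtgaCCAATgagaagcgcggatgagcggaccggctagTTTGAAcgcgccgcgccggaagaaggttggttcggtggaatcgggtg
Kif18a promoter, chr2:109280488-109280787, plus strand: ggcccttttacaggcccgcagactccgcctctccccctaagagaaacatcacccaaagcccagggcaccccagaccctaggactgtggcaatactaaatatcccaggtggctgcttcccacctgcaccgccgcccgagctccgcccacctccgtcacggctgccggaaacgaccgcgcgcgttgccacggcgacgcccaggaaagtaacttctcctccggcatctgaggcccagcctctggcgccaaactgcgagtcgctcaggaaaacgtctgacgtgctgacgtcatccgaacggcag
Kif1c promoter, chr11:70700298-70700597, plus strand: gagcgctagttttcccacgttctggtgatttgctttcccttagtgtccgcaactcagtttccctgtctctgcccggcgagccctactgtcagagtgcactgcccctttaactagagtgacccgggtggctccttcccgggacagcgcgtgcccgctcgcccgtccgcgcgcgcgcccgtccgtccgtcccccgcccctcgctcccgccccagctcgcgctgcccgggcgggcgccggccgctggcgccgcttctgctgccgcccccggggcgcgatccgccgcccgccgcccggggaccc
Kif16b promoter, chr2:142901415-142901714, minus strand: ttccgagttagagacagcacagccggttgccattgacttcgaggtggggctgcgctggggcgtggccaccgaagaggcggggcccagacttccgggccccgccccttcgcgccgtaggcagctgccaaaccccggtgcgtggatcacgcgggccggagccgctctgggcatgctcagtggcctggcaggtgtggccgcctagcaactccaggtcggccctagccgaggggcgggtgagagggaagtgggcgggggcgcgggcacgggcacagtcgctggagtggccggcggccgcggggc
In Kif11 the CCAAT match began 45 bases and the CHR match 19 bases upstream of the start. In Kif22 the nearest matches began 54 and 17 bases upstream, and in Kif18b the CCAAT matches began 53 and 30 bases upstream, with a SOX core at 73 bases upstream that is not in capitals.

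The first comparison asked how kinesin transcripts differed between SOX4KO and control organoids in bulk. Mitotic kinesins stood lower in SOX4KO lines as a class, whereas transport kinesins were little different. Of 28 kinesins with enough counts to test, 2 passed an adjusted p of 0.1, both mitotic and both lower in SOX4KO (edgeR quasi-likelihood test over 11682 genes). The background for that call was 2.17% of all genes tested called lower and 4.1% called higher. All 11 tested mitotic kinesins had a log2 fold change below zero, from −1.20 to −0.47 with a median of −0.89, beside a median of 0.0087 over all genes tested. In 10 of these 11, every SOX4KO line lay below both control lines, which held for 17.9% of all genes tested. In bulk RNA, fewer cells in division and less kinesin RNA per dividing cell cannot be told apart. By propidium iodide and Ki67 staining of organoids in vitro, the paper found no significant difference in cycle phase or proliferative cells. It also reports slightly greater proliferation of SOX4KO lines in vitro.

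**Figure D1:**
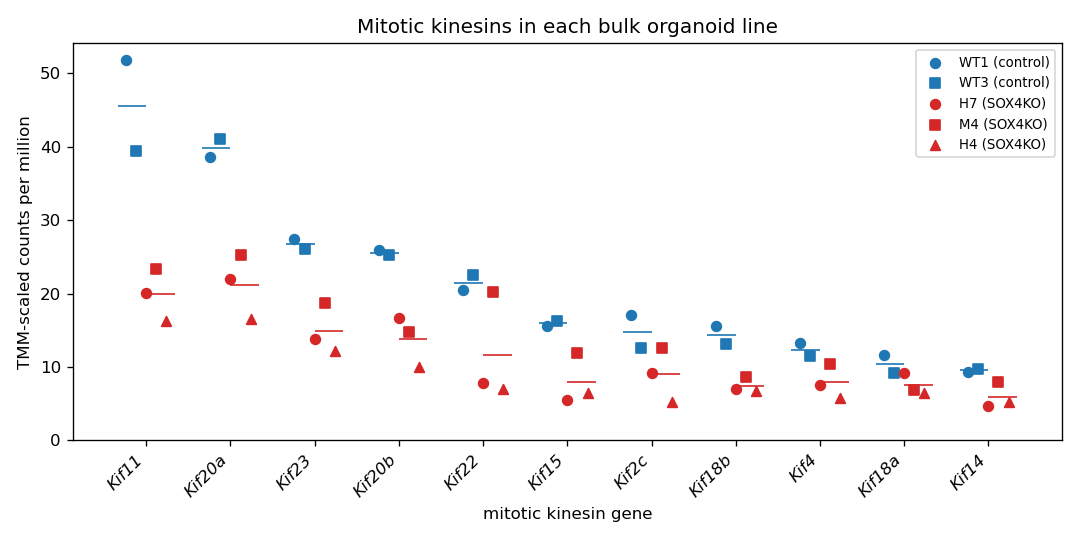
TMM-scaled CPM (vertical axis) of the 11 tested mitotic kinesins in each bulk line, with blue symbols for the 2 control lines, red symbols for the 3 SOX4KO lines and short lines for group means. For Kif11 the control lines sit at 51.8 and 39.4 CPM and the SOX4KO lines between 16.3 and 23.4 CPM, and Kif2c is the gene in which the groups overlap.

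Kif11, the kinesin-5 motor that pushes spindle poles apart, fell most among the mitotic members. It measured 51.8 and 39.4 CPM in WT1 and WT3 and 20.1, 23.4 and 16.3 CPM in H7, M4 and H4. The control mean of 45.6 CPM ± 8.73 (SD, n = 2) compared with 19.9 ± 3.56 (SD, n = 3) in SOX4KO, a log2 fold change of −1.20 ± 0.23 (SE; edgeR adjusted p = 0.0353), and the groups did not overlap. Kif15, a kinesin-12 motor that can share the pole-separating work, was at 15.5 and 16.3 CPM in the controls and at 5.48, 11.9 and 6.47 CPM in SOX4KO (log2 fold change −1.03 ± 0.36, edgeR adjusted p = 0.174). Its SOX4KO values were again all below the controls, but M4 lay nearer to them than H7 and H4 did.

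Among cytokinesis motors, every SOX4KO value was again below both controls. Kif20a, which carries the chromosomal passenger complex to the central spindle, was the other gene called. Its 38.6 and 41.0 CPM in WT1 and WT3 compared with 21.9, 25.2 and 16.5 CPM in H7, M4 and H4 (means 39.8 ± 1.73, n = 2, and 21.2 ± 4.38, n = 3, SD), a log2 fold change of −0.92 ± 0.22 (edgeR adjusted p = 0.0684). Exons of Kif20a overlap those of Cdc23 on the opposite strand, whether the counting used strand is not given in the sources used here, and Cdc23 had a log2 fold change of 0.13. Kif23, the motor subunit of centralspindlin, was at 27.4 and 26.1 CPM in controls and at 13.8, 18.7 and 12.2 CPM in SOX4KO (log2 fold change −0.85 ± 0.24, edgeR adjusted p = 0.109). Kif20b, a relative of Kif20a that also acts late in division, was at 25.9 and 25.3 CPM against 16.7, 14.8 and 10.1 CPM (−0.89 ± 0.26, edgeR adjusted p = 0.117). Both stood apart between groups and missed the threshold. Kif14, which works with citron kinase at the midbody, was low throughout, at 9.32 and 9.76 CPM in controls and 4.70, 7.92 and 5.27 CPM in SOX4KO (−0.70 ± 0.34).

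The next motors act on chromosomes and microtubule ends. Kif22, a chromokinesin that pushes chromosome arms away from the poles, was at 20.5 and 22.5 CPM in WT1 and WT3 and at 7.83, 20.2 and 6.95 CPM in H7, M4 and H4 (log2 fold change −0.92 ± 0.43, edgeR adjusted p = 0.310). M4 was thus within 0.3 CPM of WT1 for this gene, while H7 and H4 were far below. Kif4, another chromokinesin and a partner of the midzone protein PRC1, was at 13.2 and 11.6 CPM against 7.57, 10.4 and 5.75 CPM (−0.66 ± 0.33). Its exons overlap Pdzd11 on the opposite strand, and Pdzd11 had a log2 fold change of 0.30. Kif2c, a microtubule depolymerase that corrects wrong kinetochore attachments, was the only tested mitotic kinesin whose groups overlapped, with 17.1 and 12.55 CPM in controls and 9.13, 12.6 and 5.27 CPM in SOX4KO (−0.74 ± 0.38).

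Among the kinesin-8 motors, Kif18b, which shortens astral microtubules, was at 15.5 and 13.1 CPM in controls and at 7.05, 8.64 and 6.71 CPM in SOX4KO (−0.95 ± 0.28, edgeR adjusted p = 0.123). Kif18a, which damps chromosome movements at the metaphase plate, differed least of the class, at 11.6 and 9.16 CPM against 9.13, 6.84 and 6.47 CPM (−0.47 ± 0.32), with H7 just under WT3. Its exons overlap Mettl15 on the opposite strand, whose log2 fold change was −0.25. Kif2b, a depolymerase with a role in early mitosis, had no read in any bulk library. Counts of genes at this level ranged from 18 reads (Kif14 in H7) to 206 reads (Kif20a in WT3), so the less abundant members carry more counting error.

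The SOX4KO lines were not alike in extent. M4 had the highest value of the SOX4KO lines for 9 of 11 mitotic kinesins and H4 the lowest for 9 of 11. The summed mitotic kinesin level was 246 and 227 CPM in WT1 and WT3 and 123, 160.5 and 98 CPM in H7, M4 and H4. The mean of the SOX4KO sums, 127 ± 31.4 (SD, n = 3), was 0.538 of the control mean, 237 ± 13.9 (SD, n = 2). The class median of log2 differences from the control mean was −0.93 in H7, −0.50 in M4 and −1.24 in H4. M4 was also the line with the fewest reads on genes and the largest share of reads assigned to no gene for any reason (83.9%, beside 71.6% to 78.8% in the others). The part of this in its higher values was not tested. Without M4, 6 mitotic kinesins were called lower (Kif11, Kif20a, Kif22, Kif23, Kif15 and Kif18b), where 382 of all 11612 genes tested were. Without H7 or without H4, Kif11 was the single mitotic kinesin called. Over all genes 240 were then called lower without H7 and 299 without H4, beside 254 with every line. With 1 control line left, the median log2 fold change of the mitotic kinesins was −0.82 without WT1 and −0.89 without WT3.

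**Figure D2:**
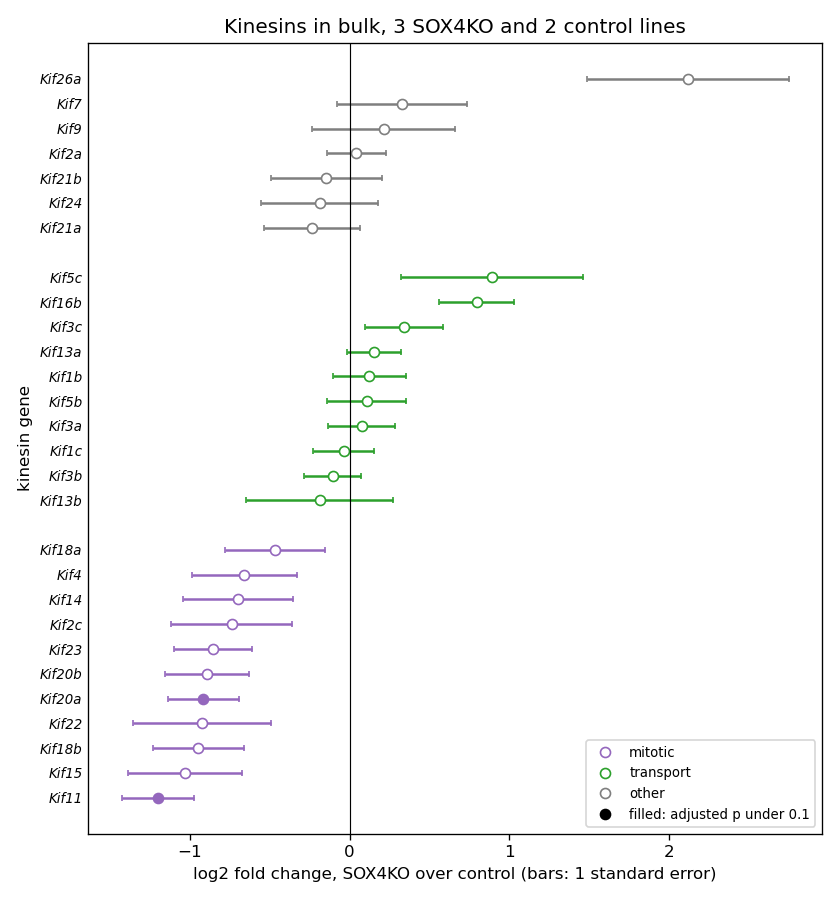
Log2 fold change of SOX4KO over control (horizontal axis) with 1 standard error for the 28 tested kinesins, grouped by class, from 3 SOX4KO and 2 control bulk lines. The 11 mitotic kinesins all lie between −1.20 and −0.47, the 10 transport kinesins between −0.19 and 0.89, and the filled symbols are Kif11 and Kif20a.

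Transport kinesins were spread around zero. None of the 10 tested was called in either direction at an adjusted p of 0.1, 1 had an unadjusted p under 0.05 (Kif16b), where 10.4% of all genes did so upward and 7.68% downward, and DESeq2 called 1 of them, also Kif16b. Their log2 fold changes ran from −0.19 to 0.89 with a median of 0.11, 7 above and 3 below zero. All SOX4KO lines lay above both controls in 2 of 10 (Kif13a and Kif16b) and below both in 0, where the background was 19% and 17.9%. The summed level was 1028 and 941 CPM in controls and 1136, 923 and 1169 CPM in SOX4KO, overlapping between groups.

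The abundant transport motors differed by less than their spread. On a per-length scale, Kif1c, a kinesin-3 carrier of vesicles and integrins, led all members at 42.6 CPM per kilobase of exon on average. It measured 303 and 326 CPM in WT1 and WT3 and 254, 328 and 339 CPM in H7, M4 and H4 (log2 fold change −0.04 ± 0.19). Kif5b, the widely expressed heavy chain of conventional kinesin, followed at 26.4 CPM per kilobase, with 219.5 and 184 CPM in controls and 266, 152 and 232 CPM in SOX4KO (0.11 ± 0.25). For both genes the SOX4KO range enclosed the controls. By comparison, the most abundant mitotic members per length were Kif20a (6.60 CPM per kilobase), Kif11 (4.05) and Kif22 (3.18), and the most abundant of the other class Kif2a (6.54), Kif21a (5.61) and Kif7 (1.78).

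Kif16b, which moves early endosomes by binding their lipids, ranked next per length at 12.3 CPM per kilobase and was higher in every SOX4KO line. It measured 76.4 and 79.1 CPM in controls and 162, 97.5 and 144 CPM in SOX4KO, a mean of 135 ± 33.2 (SD, n = 3) over 77.7 ± 1.91 (SD, n = 2). The log2 fold change of 0.79 ± 0.23 missed the threshold in edgeR (adjusted p = 0.117, range 0.00912 to 0.615 over the alternatives), and it was called by DESeq2, without a filter on low counts, and without M4. Kif5c, a conventional kinesin heavy chain best known from neurons, had 12.4 and 4.38 CPM in controls and 22.7, 16.6 and 6.95 CPM in SOX4KO (0.89 ± 0.57), and the groups overlapped. Of the 7 neuronal markers, Map2 alone was at 250.1 and 215.5 CPM in controls and at 276, 228 and 209.6 CPM in SOX4KO, while 4 of the 7 were at 0 in every line and the remaining ones had at most 1 read per line.

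Kif3a and Kif3b, the kinesin-2 pair that builds cilia, and Kif3c, the alternative partner of Kif3a, were measured well. Kif3b was at 67.3 and 73.9 CPM in controls and at 73.6, 58.0 and 65.1 CPM in SOX4KO (−0.11 ± 0.18). Kif3c was at 25.4 and 19.3 CPM against 32.6, 22.0 and 29.5 CPM (0.34 ± 0.24), and Kif3a had a log2 fold change of 0.07 ± 0.21. The groups overlapped for all 3 genes. Kif13b, a kinesin-3 motor of polarity and trafficking proteins, was at 24.1 and 21.9 CPM in controls and at 21.7, 7.20 and 30.4 CPM in SOX4KO, so M4 alone stood low (−0.19 ± 0.46, and 0.18 without M4). Kif13a, a motor of recycling endosomes, and Kif1b, which moves mitochondria and synaptic vesicle precursors, had log2 fold changes of 0.15 and 0.12. Kif17 had 3 to 9 reads per line, Kif5a at most 4, and Kif1a, a neuronal vesicle motor, none.

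The other kinesins were mostly flat, with 1 low-count exception. Kif26a, which lacks motor activity and acts in signalling, was at 2.33 and 0.996 CPM in WT1 and WT3 and at 10.2, 7.92 and 3.35 CPM in H7, M4 and H4. These values rest on 9 and 5 reads in controls and 39, 22 and 14 reads in SOX4KO. Its log2 fold change of 2.12 ± 0.63 was the largest of any member and missed the threshold in edgeR (adjusted p = 0.122, range 0.00245 to 0.709 over the alternatives), while DESeq2 and the unfiltered fit called it higher. None of the 7 other kinesins tested was called in edgeR, and 1 (Kif26a) was higher at an unadjusted p under 0.05, beside 10.4% of all genes.

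Kif7, a ciliary regulator of Hedgehog signalling, was at 8.80 and 5.38 CPM in controls and at 11.5, 9.36 and 5.75 CPM in SOX4KO (0.33 ± 0.40). Kif21a, which restrains microtubule growth at the cell cortex, was at 46.6 and 33.7 CPM against 40.2, 20.9 and 40.2 CPM (−0.23 ± 0.30), and its relative Kif21b at 11.1 and 10.95 CPM against 13.6, 6.48 and 9.58 CPM (−0.14 ± 0.35). Kif24, which acts at centrioles to limit cilium formation, was at 13.7 and 8.36 CPM against 12.0, 6.48 and 10.1 CPM (−0.19 ± 0.36). In each of these genes the groups overlapped. Kif2a, a depolymerase with work in both interphase and spindle, was at 37.8 and 44.2 CPM in controls and at 39.7, 46.8 and 40.5 CPM in SOX4KO (0.04 ± 0.18), unlike its mitotic relative Kif2c, though the difference between these genes was not tested. Kif9, of motile cilia, had a log2 fold change of 0.21 ± 0.45. Kif19a had 0 and 1 reads in controls and 12, 2 and 4 in SOX4KO, Kif26b had 3 to 16 reads per line, Kif12, Kif27 and Kif28 at most 1, and Kif6 none, so these were not tested. Among tested transport and other kinesins, exons of Kif7, Kif2a, Kif5b and Kif3c also overlap genes on the opposite strand. These include Ticrr for Kif7 and Dimt1 for Kif2a, and their part in the counts was not tested.

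The symbol rule leaves out kinesins that carry other names. Of 6 tested (Cenpe, Kifc1, Kifc2, Kifc3, Kifc5b and Stard9) none was called in edgeR. At an unadjusted p under 0.05, 1 (Cenpe) was lower, beside 7.68% of all genes. In 4 of the 6 (Cenpe, Kifc1, Kifc5b and Stard9) every SOX4KO line lay below both controls, beside 17.9% of all genes. In 1 (Kifc3) every SOX4KO line lay above both, beside 19%. The median log2 fold change of these 6 was −0.60, and Kifc5b and Stard9 had at most 25 reads per line. Cenpe, the kinetochore motor that gathers chromosomes at the spindle equator, was at 29.8 and 31.9 CPM in controls and at 20.6, 20.2 and 11.3 CPM in SOX4KO (−0.84, edgeR adjusted p = 0.161). Light chains, subunits and adaptors of transport kinesins gave 9 of 12 genes above zero and none called, with 3 higher at an unadjusted p under 0.05 (Klc1, Mapk8ip1 and Mapk8ip3), beside the 10.4% of all genes. In 6 of the 12 every SOX4KO line lay above both controls, beside 19% of all genes, and in 1 below both. Their summed level was 753 and 774 CPM in controls and 863, 976 and 904 CPM in SOX4KO. Dynein and dynactin, the minus-end motor that works against kinesins, had 0 of 23 tested genes called in edgeR, 1 with an unadjusted p under 0.05, and a median log2 fold change of 0.04.

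Partners and regulators of the mitotic kinesins were also lower, in part past the threshold. Of 30 such genes tested, 9 were called lower and none higher in edgeR, beside 2.17% and 4.1% of all genes tested. At an unadjusted p under 0.05 (edgeR), 20 were lower and 0 higher, beside 7.68% and 10.4% of all genes. A log2 fold change below zero was found in 29, beside 5741 of all 11682 genes tested. In 24, every SOX4KO line stood below both controls, beside the background of 17.9%. The median log2 fold change was −0.84. Ccnb1, the cyclin that drives entry into mitosis, was lowest in p, with 22.3 and 23.9 CPM in controls and 8.09, 9.72 and 7.19 CPM in SOX4KO (−1.48, edgeR adjusted p = 0.0275). Aurka, a spindle-pole kinase, fell by 1.31 on the log2 scale, and Plk1, another mitotic kinase, by 1.37 (edgeR adjusted p = 0.0418 for both). Ect2, which centralspindlin brings to the cleavage site, fell by 1.13 (edgeR adjusted p = 0.0451), and Ndc80, the microtubule receptor of kinetochores, by 1.65 (edgeR adjusted p = 0.0547). The partners summed to 1028 and 1007 CPM in controls and to 619, 755 and 574 CPM in H7, M4 and H4, which is the same order of SOX4KO lines as for the kinesins.

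Some markers of cell type also differed between the groups in the same libraries, and others overlapped. The 15 basal markers summed to 2385 and 1534 CPM in controls and to 5503, 7859 and 2824 CPM in H7, M4 and H4. Of 11 tested, 4 were called higher (Vim, Oxtr, Jag2 and Sparc), beside 4.1% of all genes. Acta2, Myh11, Cnn1 and Tagln were too low to test. Every SOX4KO line lay above both controls in 6 of the 11, beside 19% of all genes. The groups overlapped for Krt5, Krt14, Krt15, Krt17 and Igfbp2. Krt14 was at 235 and 240 CPM in controls and at 107.5, 601 and 187 CPM in H7, M4 and H4. The log2 fold change of Krt17 was −1.08. The 15 luminal markers summed to 3113 and 3080 CPM in controls and to 2632, 2392 and 4787 CPM in SOX4KO. Of 14 tested, 9 were below zero (median log2 fold change −0.40). Esr1 was the 1 called higher and Cited1 the 1 called lower, beside 4.1% and 2.17% of all genes. H4 stood above the controls through Csn3, a milk casein, at 2287 CPM, and without Csn3 the luminal sum was 2776 and 2809 CPM in controls and 1891, 2227 and 2499 CPM in H7, M4 and H4. Sparc made up most of the basal sums of H7 and M4, and without it these sums were 1083 and 801 CPM in controls and 1740, 2516 and 1131 CPM in SOX4KO. The 8 fibroblast markers summed to 315 and 201.1 CPM in controls and to 142, 129.9 and 139 CPM in SOX4KO. Of 4 tested, 1 was called lower (Col1a1, log2 fold change −1.39, edgeR adjusted p = 0.0624), beside 2.17% of all genes. H4, the line with the lowest mitotic kinesins, had the highest luminal and the lowest basal sum of the SOX4KO lines, also without Csn3 and Sparc. Csn3, Sparc and Map2 were singled out after their values were seen. The part of these cell types in the kinesin differences was not tested.

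The single-cell libraries allowed kinesins to be read by cell. Summed over wells, mitotic kinesins stood at 432 CPM in GR17 (3336 UMIs), 297 CPM in GR18 (2382 UMIs) and 295 CPM in GR19 (2446 UMIs). The ratio to control was 0.688 (95% interval 0.652 to 0.725) in GR18 and 0.682 (0.647 to 0.718) in GR19, where intervals cover counting error only. Transport kinesins stood at 449, 428 and 485 CPM, with ratios of 0.953 (0.908 to 0.999) and 1.08 (1.03 to 1.13) on either side of 1. No test was run with 1 control library, and these are differences between 3 libraries. The 9 other kinesins detected summed to 99.6, 80.8 and 92.0 CPM, with ratios of 0.811 (0.730 to 0.902) and 0.924 (0.835 to 1.02). Within them Kif2a, flat in bulk, measured 54.6, 37.7 and 48.6 CPM, lowest in GR18. Cell type markers differed between the same libraries. The luminal sum was 1697 CPM in GR17, 2017 in GR18 and 3729 in GR19, which is 1.19 and 2.20 times control, and the basal sum was 5037, 5227 and 2973 CPM, which is 1.04 and 0.590 times control. GR19 thus stood lower in basal markers than control, whereas the bulk SOX4KO lines stood higher, and the part of these cell types in the kinesin ratios was not tested.

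All 11 mitotic kinesins that were detected lay below control in both SOX4KO libraries, which held for 3350 of all 8216 genes with a mean of at least 10 CPM. Kif2c alone passed a 1.5-fold difference in both (2.98% of all genes did so downward and 6.22% upward), at 45.9 CPM in GR17, 26.5 in GR18 and 23.3 in GR19. This is the gene whose bulk groups overlapped. Kif11 was at 55.9, 35.8 and 38.2 CPM (log2 ratios −0.63 and −0.54) and Kif20a at 18.1, 12.0 and 9.28 CPM (−0.56 and −0.90). Kif23 was the most abundant by UMIs, at 102, 70.5 and 63.3 CPM. Kif18a differed between the SOX4KO libraries, at 14.6 CPM in control, 9.49 in GR18 and 14.3 in GR19, so GR19 was level with control within counting error.

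**Figure D3:**
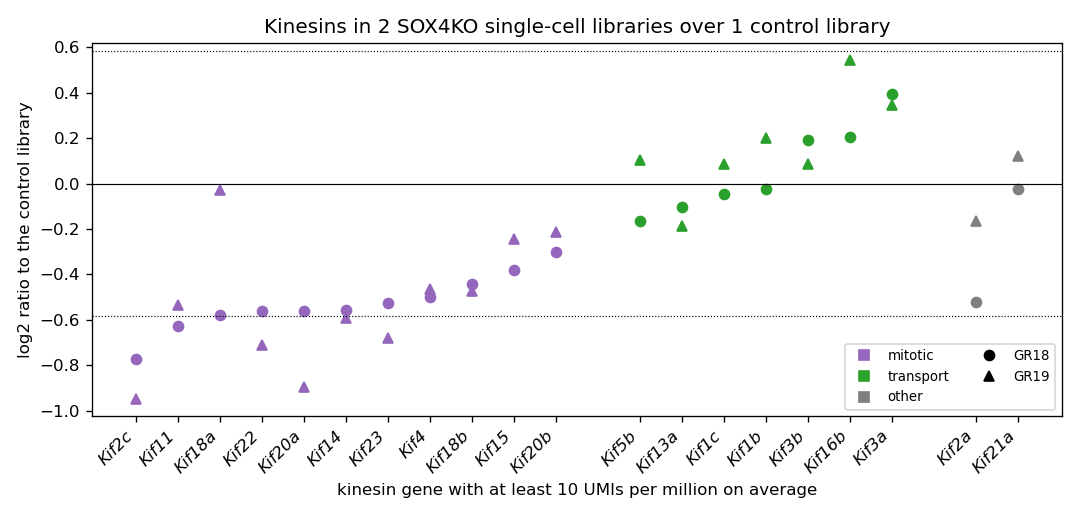
Log2 ratio to the control library GR17 (vertical axis, 1 CPM added) of each kinesin with a mean of at least 10 CPM, circles for GR18 and triangles for GR19, with dotted lines at 1.5-fold. All 11 mitotic kinesins lie below 0 in both libraries, Kif2c lies beyond the lower line in both, and Kif3a is the highest transport kinesin in GR18.

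Of 7 transport kinesins at this level, 3 were above control in both SOX4KO libraries (Kif3a, Kif3b and Kif16b) and 1 below (Kif13a), none past 1.5-fold. Kif16b, higher in bulk SOX4KO lines, measured 11.7, 13.6 and 17.5 CPM from 90, 109 and 145 UMIs, with overlapping intervals between GR17 and GR18. Kif3a measured 22.6, 30.0 and 28.9 CPM. The transport or other kinesins with the largest bulk log2 fold changes, neither of them called, had few UMIs. Kif26a had 22 UMIs in GR17, 18 in GR18 and 5 in GR19 (2.85, 2.25 and 0.603 CPM), and Kif5c had 40, 18 and 11 UMIs (5.19, 2.25 and 1.33 CPM). Whether bulk and single-cell lines share clones is not given in the labels, and the difference between assays was not tested.

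Cells were then classed as G1, S or G2M by Seurat scores from which every Kif gene had been left out, although 16 of the 48 G2M genes scored are among the mitotic partners above, so class and mitotic kinesin level are not independent. The mitotic kinesins followed the class closely. In GR17 they summed to 63.0 CPM in G1-class cells, 282 CPM in S-class cells and 768 CPM in G2M-class cells. In GR18 the values were 32.4, 217 and 693.5 CPM, and in GR19 28.9, 237 and 692 CPM. Each of the 11 mitotic kinesins was ordered G1, S, G2M from lowest to highest in each of the 3 libraries, as class sums with no test, and G2M-class cells exceeded S-class cells by 1.27-fold (Kif18a in GR18) to 8.74-fold (Kif14 in GR18). Kif11 measured 2.59, 36.4 and 101.6 CPM in the G1, S and G2M classes of GR17. Transport kinesins as a sum varied little between classes, with 472, 445 and 444 CPM in GR17, 412, 415 and 458 CPM in GR18 and 483, 462 and 519 CPM in GR19. Of 7 with at least 50 UMIs, 0 had the order G1, S, G2M in GR17, 1 in GR18 and 2 in GR19. Kif5b, the most abundant of them by UMIs, had this order in both SOX4KO libraries, at 165, 204 and 235 CPM in GR18 (1.42-fold from G1 to G2M) and 209, 241 and 276 CPM in GR19 (1.32-fold), with intervals of G1 and G2M apart. In GR17 it was at 203, 229 and 224 CPM. Kif5b was singled out here after its values were seen. Other kinesins summed to 85.4, 113 and 88.1 CPM in the G1, S and G2M classes of GR17. In GR18 they were at 65.2, 90.4 and 89.2 CPM, and in GR19 at 63.3, 108 and 105.5 CPM. Their G1 and G2M intervals overlapped in GR17 and were apart in GR18 and GR19. The ratio of G2M to G1 in GR17, GR18 and GR19 was 1.41, 1.71 and 1.60 for Kif2a. For Kif21a it was 0.836, 1.22 and 1.80.

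**Figure D4:**
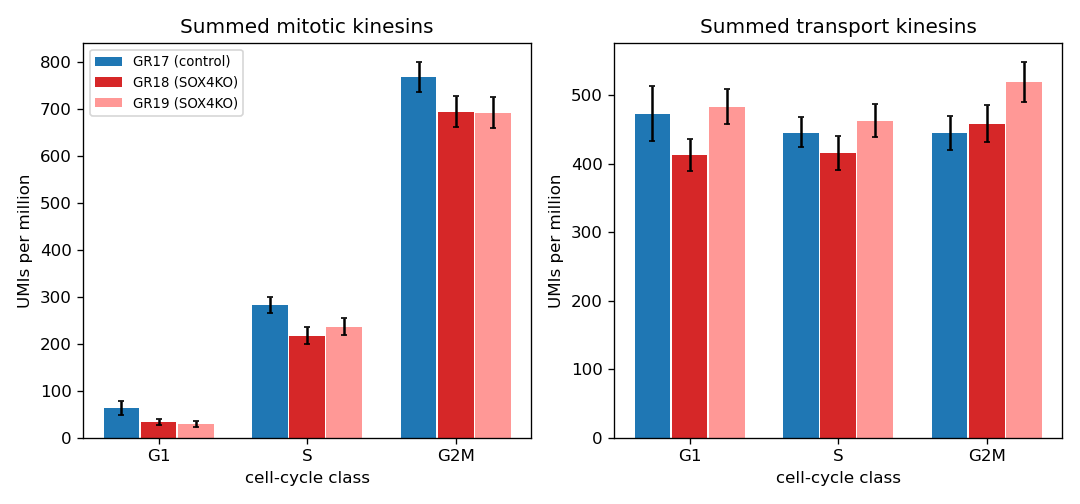
Summed level in CPM of UMIs (vertical axes) of 11 mitotic kinesins (left) and 13 transport kinesins (right) in cells classed as G1, S and G2M, in the control library GR17 and the SOX4KO libraries GR18 and GR19, with 95% counting intervals. Mitotic kinesins climb from 63.0 to 768 CPM in GR17, whereas transport kinesins stay between 412 and 519 CPM in all classes.

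Within a class the SOX4KO libraries lay closer to control as the cycle advanced. The mitotic sum relative to GR17 was 0.515 (95% interval 0.375 to 0.708) in GR18 and 0.459 (0.331 to 0.637) in GR19 among G1-class cells, which rest on 73 UMIs in control, 95 in GR18 and 83 in GR19. Among S-class cells it was 0.767 (0.691 to 0.851) and 0.838 (0.761 to 0.923). Among G2M-class cells it was 0.903 (0.847 to 0.962) and 0.901 (0.845 to 0.961). Of the 11 genes, 10 in GR18 and 7 in GR19 were below control in G2M-class cells. Transport kinesins in G2M-class cells had ratios of 1.03 (0.952 to 1.12) and 1.17 (1.08 to 1.26).

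The classes differed in size between libraries. G1-class cells made up 20.9% of GR17 (77 of 369, exact 95% interval 16.8% to 25.4%), 43.9% of GR18 (38.8% to 49.1%) and 40.9% of GR19 (35.8% to 46.1%). S-class cells made up 43.4%, 27.1% and 32.0%, and G2M-class cells 35.8%, 29.0% and 27.1%, and after thinning every cell to 5000 UMIs the G2M shares were 36.3%, 27.9% and 27.1%. These are shares of a score, not a count of dividing cells, and the stains cited above showed no significant difference in vitro. Per library, 20 to 26 cells lay within 0.05 of the cut between G1 and the other classes. Cells near the cut between S and G2M were not counted. The control level within each class was also weighted by the share of UMIs, not of cells, that each class held in a SOX4KO library. This put the mitotic sum at 353 CPM for GR18 and 345 CPM for GR19, beside 297 and 295 CPM measured and 432 CPM in control.

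At equal depth, at least 1 UMI of any mitotic kinesin was found in 126 of 131 G2M-class cells of GR17 (96.2%), 93 of 107 of GR18 (86.9%) and 89 of 98 of GR19 (90.8%). In G1-class cells, which should largely lack them, the shares were 14 of 72 (19.4%), 20 of 160 and 14 of 145 (9.66%). Without thinning the G2M shares were 99.2%, 98.1% and 98.98% and the G1 shares 45.5%, 37.0% and 31.1%. Median depth per cell in G1 and G2M classes before thinning was 14517 and 20932 UMIs in GR17, 17185 and 22119 in GR18 and 18568 and 23029 in GR19, and 4 to 8 cells per library fell below 5000 UMIs and were left out.

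Transport kinesins were also read along the luminal to basal range, comparing within G1-class cells the third with the highest basal minus luminal marker score with the third of the lowest (25, 54 and 49 cells each in GR17, GR18 and GR19). Kif1c was lower at the basal end in all 3 libraries, at 80.0 against 121 CPM in GR17, 75.3 against 106 CPM in GR18 and 78.6 against 123 CPM in GR19. The intervals overlapped in GR17 (52.7 to 116 against 89.5 to 159 CPM) and GR18 (58.5 to 95.5 against 87.4 to 127 CPM) and were apart in GR19 (61.1 to 99.4 against 103 to 145 CPM). Kif5c had 7 UMIs at the basal end and 0 at the luminal end in GR17, 5 and 0 in GR18, and none in GR19. The transport sum was nearly level between ends, with basal to luminal ratios of 1.04, 1.09 and 0.952, and Kif5b was at 216 against 200.3 CPM, 165 against 146 CPM and 216 against 214 CPM. Kif1c and Kif5c were named here after their values were seen, and no test was run.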

How the data were processed

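Bulk RNA-seq (5 organoid lines) and plate-based single-cell RNA-seq (3 lines, 384 wells each) were analysed from the deposited counts. The authors' raw read counts per Ensembl gene (bulk) and UMI counts per gene and well (single cells) were not normalized; the labels name STAR 2.4.2a and HTSeq, with builds NCBIM37 and mm9, and the counting mode is not given in the sources used here. Rows naming no gene (71.6% to 83.9% of bulk reads) and ERCC spike-ins (0.791% to 1.62% of UMIs) were left out. Symbols and exon lengths came from GENCODE M21 (GRCm38), which matched 36345 of 38293 identifiers. Coordinates are printed for promoters only, on GRCm38.p6.

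Bulk counts were tested with edgeR 4.0.16 (TMM, filterByExpr, quasi-likelihood, Benjamini-Hochberg over all genes, threshold 0.1) in R 4.3.3, with DESeq2 1.42.0 as an alternative, after a check on simulated data. CPM are TMM-scaled. A p-value measures the spread between clones with 1 library each. Line numbers are clone names and pair nothing. Wells with at least 1000 UMIs were kept, without doublet calling, and all 384 well names recur in all libraries as plate positions. Cell-cycle classes used Seurat 5.3.0 on all libraries together. Single-cell intervals are exact (Poisson or binomial, 95%) and cover counting error only.

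Values in every line were given for every tested mitotic kinesin, every kinesin called, the 5 transport or other kinesins with the largest rise and the 5 with the largest fall, and the 3 most abundant per length in each class; up to 5 called genes of lowest p were named per partner list. Members, lists and tests were chosen with earlier results of these data known.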

Additional observations from a re-analysis of the deposited data

How the results depend on the processing

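With 2 control and 3 SOX4KO lines, calls depended on the settings more than directions did. Of 140 summary values recomputed, 117 stayed close to the reported value and 23 moved. Each of the 28 tested kinesins was also refitted in 9 alternatives. Of these single-gene refits 16 reversed sign, none in a mitotic kinesin. The count of mitotic kinesins called lower, 2 as reported, was 7 without a filter on low counts and 1 at an edgeR adjusted p of 0.05. It was 1 without H7 or H4 and 6 without M4. Over all genes, 254 were called lower as reported, 678 without the filter and 113 at 0.05. Without H7, H4 and M4 these were 240, 299 and 382. Fits without WT1 or WT3 leave 1 control line, so no counts of calls are given for them. Mitotic partners called lower, 9 as reported, numbered 17 without the filter and 4 at 0.05. They numbered 6 without H7 or H4 and 20 without M4. Transport and other kinesins called higher, 0 as reported, numbered 2 in DESeq2 and 3 without the filter. With a SOX4KO line left out they numbered 0 to 1 (1 without M4 and 1 without H4). Over all genes, 479 were called higher as reported, 658 in DESeq2 and 1008 without the filter. Kif11 ranged over its alternatives from −1.38 to −0.99 on the log2 scale and Kif20a from −1.06 to −0.76. The median of the other kinesins, 0.04, ranged from −0.067 to 0.20 with a line left out. Kinesins past 1.5-fold lower in single cells, 1 as reported, numbered 3 with large wells left out, 3 with each cell weighing the same and 0 at 2-fold, and were 2 or 5 with a single SOX4KO library (2 without GR19, 5 without GR18). Leaving mitochondrial genes and Rn45s out of the total moved the mitotic ratio of GR19 to 0.722. The cause of these moves was not tested.

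Several transport and other kinesins with log2 fold changes near 0 changed sign in 1 or 2 of 9 alternative fits. Over these 9 fits the range was −0.63 to 0.18 for Kif13b, −0.11 to 0.40 for Kif1b and −0.11 to 0.079 for Kif1c. It was −0.45 to 0.014 for Kif21a, −0.44 to 0.061 for Kif21b and −0.51 to 0.20 for Kif24. For Kif2a it was −0.066 to 0.16, for Kif3a −0.053 to 0.21, for Kif5b −0.072 to 0.30 and for Kif9 −0.067 to 0.53. No paired analysis was possible because line numbers are clone names. At these depths genes with fewer than about 20 reads per line, and single-cell genes under 10 CPM, carry large counting error.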
